A study of Oryza sativa with 10 samples.

Results

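Late embryogenesis abundant (LEA) genes other than dehydrins were followed in rice (Oryza sativa) roots with and without salt. They were chosen by identifier, and 5 genes were found in every file, out of 38978 genes listed there. They are LEA3-1 (Os05g0542500), LEA3-2 (Os03g0322900), Em (Os05g0349800), a gene of LEA group 3 (Os01g0705200) and a gene of LEA group 1 (Os04g0589800). The last pair carry no other name here and are called LEA group 3 and LEA group 1. All 5 passed the filter on low counts, which kept 28189 genes.

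Root RNA came from the lines S13, which the labels call salt tolerant, and S3, which they call salt susceptible. All plants were 42 days old and had grown for 30 days under normal conditions. For the last 12 days they were either moved to culture solution with 140 mM NaCl or left as they were, labelled 0 mM. There were 2 control and 3 salt libraries of each line. The labels name the lines no further and do not say whether the libraries of 1 group are from different plants, so that the p-values may reflect technical spread alone. In roots taken whole, more RNA per cell and more cells of an expressing type cannot be told apart.

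LEA proteins are very hydrophilic proteins that accumulate late in seed maturation, when the embryo dries, and again in vegetative tissue under drought, salt or abscisic acid. Many of them are unfolded in water and take up structure on drying, and they are thought to shield enzymes and membranes against loss of water. They fall into groups by sequence. Group 3 proteins are built from repeats of a short motif that can form an amphipathic helix, Em belongs to a small family first described in wheat embryos, and the dehydrins form a group of their own that is not treated here.

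The libraries held 22938524 to 25703942 counts. Salt changed the makeup of the libraries: the TMM factors, which scale a library by the bulk of its genes, ran from 1.31 to 1.42 in controls and from 0.729 to 0.922 under salt. Levels are given below as CPM, counts scaled to a common library size with the TMM factors applied, and a difference between groups as a log2 fold change. When libraries were scaled by their totals alone, the genes' median log2 response to salt was -0.76 instead of -0.03 in S13, and -0.77 instead of -0.06 in S3. Every salt response given below in CPM, or from a fit with TMM factors, is therefore relative to the bulk of the genes. Shares of counts and levels per length carry no TMM factors. No gene specific to roots could be named from the sources used here, so the tissue rests on the labels. Of 10 plastid genes listed as markers of green tissue, 8 were in the files, and none was at 0 throughout a group. Together they held 0.0119% to 0.0269% of counts in S13 controls and 0.007% to 0.0138% in S13 under salt. In S3 they held 0.0158% to 0.0208% in controls and 0.0123% to 0.024% under salt. Control and salt libraries overlapped in each line, although under salt single markers were called in both directions, 1 higher and 2 lower in S13 and 5 higher and 1 lower in S3. Their part in the results was not tested.

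None of the 5 genes shared exon bases with another gene of the files on either strand. On IRGSP-1.0, LEA3-1 lies on chromosome 5 from 26927607 to 26928882 on the plus strand, in 1 block of 1276 bp of exon. Em lies on the same chromosome from 16518577 to 16519493 on the minus strand, with 811 bp of exon in 2 blocks. LEA3-2 is on chromosome 3 from 11699307 to 11700672, minus strand, with 1280 bp of exon in 2 blocks. LEA group 3 is on chromosome 1 from 29233040 to 29234256, minus strand, with 1006 bp in 3 blocks, and LEA group 1 on chromosome 4 from 29811954 to 29812662, plus strand, with 709 bp in 1 block. The 5 genes thus lay at 5 separate places and formed no cluster with each other.

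The LEA genes were already abundant without salt. In the S13 controls 1.21% ± 0.0226 (SD, n = 2) of all counts fell on them, and in the S3 controls 1.36% ± 0.129 (SD, n = 2). Under salt this share was 2.66% ± 0.335 (SD, n = 3) in S13 and 2.36% ± 0.216 (SD, n = 3) in S3. The lowest salt library, the first of S3, stood at 2.11% and the highest control library at 1.45%, so that control and salt libraries did not overlap. LEA3-1 made up more than any other member in each library, and ranked between 2 and 4 of all 38978 genes by counts.

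**Figure D1:**
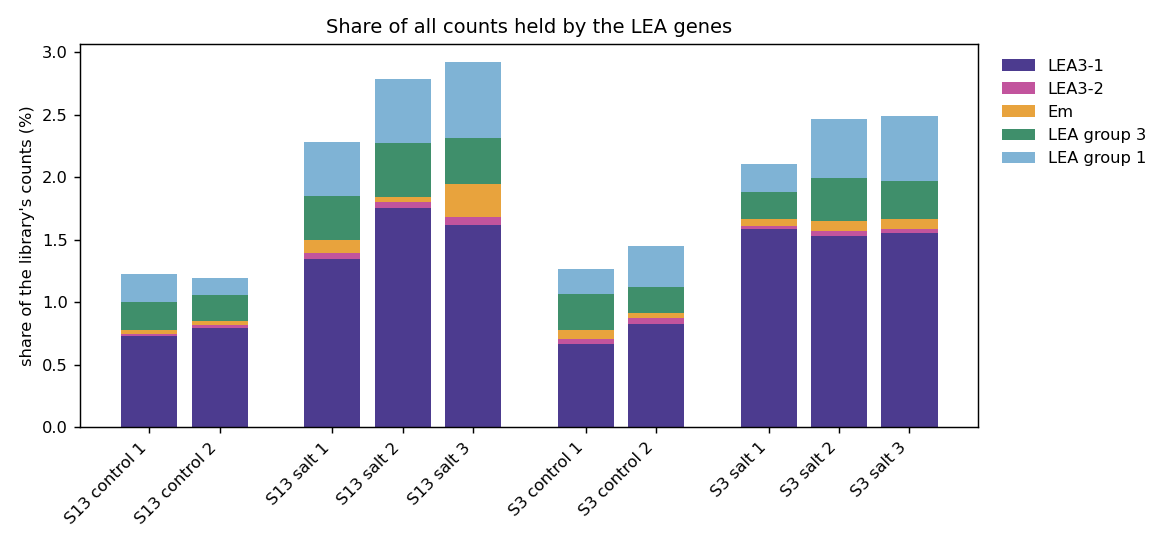
Share of each library's counts, in percent, held by the 5 LEA genes, as stacked bars for the 10 libraries in 4 groups. The salt libraries reach 2.11% to 2.92% and the control libraries 1.20% to 1.45%, and LEA3-1 is the largest block in each bar.

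Levels of different genes were compared per length, as TPM (counts per kilobase of exon, scaled to the same sum in each library). In S13 controls LEA3-1 had a level of 7270 ± 713 TPM (SD, n = 2), LEA group 1 one of 3069 ± 920 and LEA group 3 one of 2622 ± 87.1. Em followed with 475 ± 68.9 TPM and LEA3-2 with 171 ± 32.7 TPM. The members therefore spanned a wide range of abundance, and LEA3-2 held only 1.26% ± 0.258 (SD, n = 2) of the summed LEA level per length in S13 controls. In S3 controls the level of LEA3-1 was 7021 ± 1185 TPM (SD, n = 2) and that of LEA3-2 was 381 ± 70.3 TPM. The mean levels stood in the same order in all 4 groups, with LEA3-1 first, then LEA group 1, LEA group 3, Em and LEA3-2. LEA group 1 and LEA group 3 changed places in S13 control library 2, where LEA group 1 stood at 2419 TPM and LEA group 3 at 2560.4 TPM.

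The first question was what salt did to these genes in the tolerant line. All 5 rose in S13, by 3.0 to 7.2 times, and each passed the edgeR quasi-likelihood test, whereas 12.8% of all 28189 tested genes were called higher. For each of the 5 the lowest salt library lay above the highest control library, which held for 25.8% of all tested genes. The median log2 fold change of the 5 was 2.28, against -0.03 for all tested genes. The 5 were chosen with earlier results of these data known, so these comparisons with all genes are description and not a test of the set.

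LEA3-1, a group 3 protein related to barley HVA1 whose overexpression has been used to raise drought tolerance in rice, stood at 5486 and 5903 CPM in the S13 controls. Under salt the libraries held 14603, 24066 and 21034 CPM. The lowest of these lay well above both controls, and the log2 fold change was 1.81 ± 0.38 (SE; edgeR quasi-likelihood, Benjamini-Hochberg adjusted p = 0.00808). LEA3-1 also made up the largest part, 43.8%, of the difference in summed TPM between S13 salt and S13 control.

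LEA3-2, reported in rice to raise tolerance of drought and salt when overexpressed, was at 120 and 148 CPM in S13 controls and at 542, 615 and 830.1 under salt. All salt libraries lay above both controls, and the log2 fold change of 2.30 ± 0.36 (SE) had the lowest adjusted p of the 5 (edgeR quasi-likelihood, Benjamini-Hochberg adjusted p = 0.00256).

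Em, an embryo protein whose promoter has served as a standard for abscisic acid response in cereals, had the widest spread and, with all libraries, the largest fitted fold change. It was at 219.8 and 253 CPM in the S13 controls and at 1069.8, 649.6 and 3416 under salt. The third salt library was 5.26 times the second, and the standard deviation was 87.1% of the mean, yet all 3 lay above the controls. The log2 fold change was 2.86 ± 0.65 (SE; edgeR quasi-likelihood, Benjamini-Hochberg adjusted p = 0.0113). Without the third salt library it was 1.86 and still passed (adjusted p = 0.0103), but stood below LEA3-2 at 2.11 and LEA group 1 at 2.12.

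LEA group 3 stood at 1716 and 1533 CPM in S13 controls and at 3900.01, 5847 and 4759.9 under salt. Its log2 fold change of 1.57 ± 0.37 (SE) was the smallest of the 5 (edgeR quasi-likelihood, Benjamini-Hochberg adjusted p = 0.0125). When libraries were scaled by their totals alone, this value was 0.82 and missed the threshold (adjusted p = 0.0541), with the median of all genes shifted down alike. Relative to that median LEA group 3 stood at 1.58, against 1.60 with TMM factors. LEA group 1 had control values of 1676 and 1021 CPM and salt values of 4683, 7024 and 7895 CPM, a log2 fold change of 2.28 ± 0.51 (SE; edgeR quasi-likelihood, Benjamini-Hochberg adjusted p = 0.0105). Its controls differed more from each other than those of any other member in S13, and still lay far below the salt libraries.

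These calls rested on having 2 control libraries. Without S13 control library 1, or without S13 control library 2, only LEA3-2 of the 5 was called, and the adjusted p of the other members ran up to 0.0991. Their log2 fold changes stayed between 1.49 and 2.96 in those fits, in which the lone control was assumed to vary like the other groups.

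**Figure D2:**
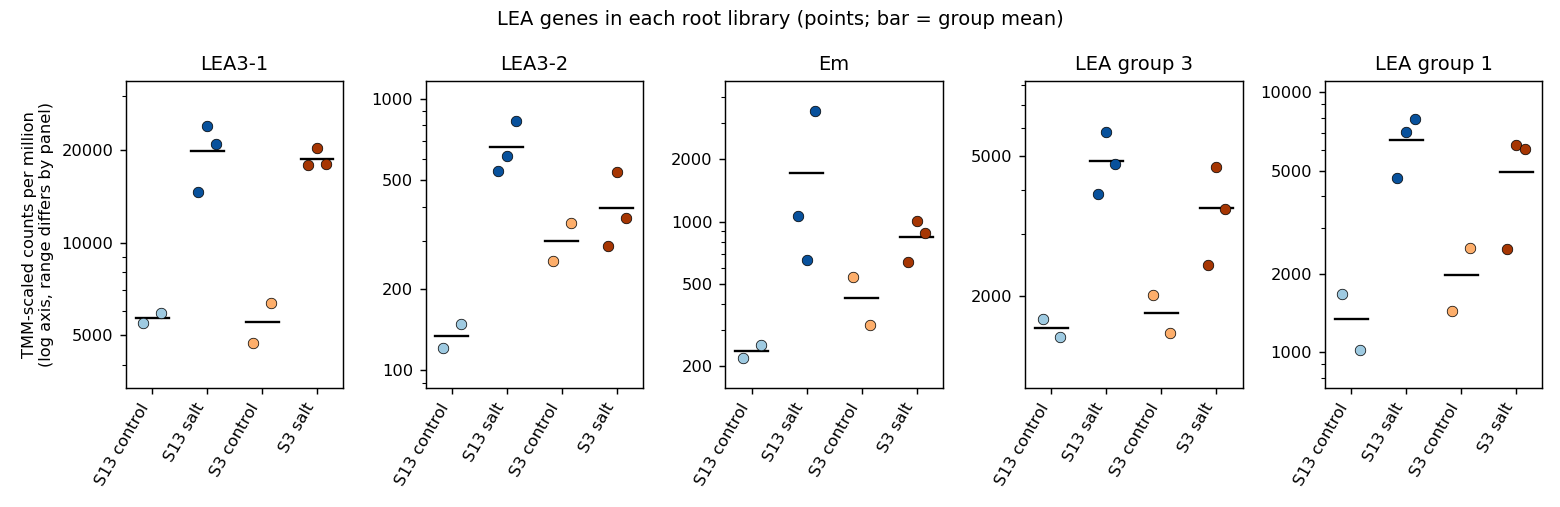
TMM-scaled CPM on a log axis for each LEA gene, with a point per library, a bar at the group mean and a range that differs by panel. In S13 every salt point lies above both control points in all 5 panels, while in S3 the groups overlap for LEA3-2 and LEA group 1.

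In the susceptible line 1 of the 5 genes, LEA3-1, was called higher, where 14.4% of all tested genes were. The fitted values of the other 4 were above 0 too, and the 95% intervals of LEA group 3 (0.19 to 1.78) and LEA group 1 (0.23 to 2.39) did not reach 0. The salt libraries lay above both controls for 3 of the 5, LEA3-1, Em and LEA group 3, which held for 28.2% of all tested genes. The median log2 fold change of the 5 was 0.99, against -0.06 for all tested genes.

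LEA3-1 was at 4694 and 6335 CPM in S3 controls and at 17962, 20348 and 17991 under salt. The salt libraries were close together and all far above the controls. The log2 fold change was 1.77 ± 0.38 (SE; edgeR quasi-likelihood, Benjamini-Hochberg adjusted p = 0.00681). Without S3 control library 1 it was 1.57 and missed the threshold (adjusted p = 0.0663), which left 0 of the 5 called.

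LEA3-2 stood at 252 and 348 CPM in S3 controls and at 287, 539 and 363 under salt. Control and salt libraries overlapped, and the log2 fold change of 0.40 ± 0.33 (SE) did not pass (edgeR quasi-likelihood, Benjamini-Hochberg adjusted p = 0.377). Its 95% interval ran from -0.34 to 1.14 and so held both directions. On scaling by library totals alone the value was -0.33, but relative to the median of all genes it was 0.44, against 0.46 with TMM factors.

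Em was at 539.5 and 318 CPM in S3 controls and at 638, 1009 and 880.1 under salt. Every salt library lay above both controls, but the log2 fold change of 0.98 ± 0.60 (SE) did not pass (edgeR quasi-likelihood, Benjamini-Hochberg adjusted p = 0.229). The fit estimated the spread over all 4 groups. For Em the standard deviation was 22.4% of the mean in S3 salt, against 87.1% in S13 salt. In the same test the adjusted p for S3 was 0.0533 without S13 salt library 3, and 0.0617 with the S3 groups fitted alone. Over all alternatives it ran from 0.0533 to 0.762.

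As plain shares of a library's counts, without TMM factors, the S3 groups overlapped for Em, at 0.0415% to 0.0766% in controls and 0.0564% to 0.0761% under salt. They also overlapped on that scale for LEA group 3, at 0.205% to 0.286% and 0.217% to 0.350%, while LEA3-1 stayed apart, at 0.667% to 0.829% and 1.53% to 1.59%.

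In the main fit LEA group 3 and LEA group 1 came close to the threshold in S3. The former stood at 2011 and 1568 CPM in controls and at 2459, 4653 and 3544 under salt, a log2 fold change of 0.99 ± 0.36 (SE; edgeR quasi-likelihood, Benjamini-Hochberg adjusted p = 0.0564). The latter was at 1441 and 2529 CPM in controls and at 2498, 6245 and 6037 under salt, with 1.31 ± 0.49 (SE) and an adjusted p of 0.0608 in the same test. Salt library 1 was the lowest of its group in CPM for each of the 5 members, though for LEA3-1 only just, and for LEA group 1 it lay below the higher control. As a share of counts the same library was the highest of its group for LEA3-1, at 1.59% against 1.53% and 1.56%. Without that library both genes passed (adjusted p = 0.0355 for LEA group 3 and 0.0256 for LEA group 1), and DESeq2 called both with all libraries included (adjusted p = 0.00755 and 0.0136). Of this pair, LEA group 3 alone was also called with limma-voom, with DESeq2 size factors and without S13 salt library 2. The count of 1 in S3 thus reached 3 by DESeq2 or without S3 salt library 1.

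In each line the salt library with low LEA levels in CPM was also the one closest to the controls in makeup. CPM is divided by the TMM factor, so a higher factor lowers it, and part of this match is fixed by construction. S3 salt library 1 had a TMM factor of 0.883, against 0.753 and 0.865 in the other two, and its 10 most abundant genes held 11.7% of counts, against 14.7% and 12.1%. S13 salt library 1 was the lowest of its group in CPM for 4 of the 5 members, all but Em, and had a factor of 0.922, against 0.729 and 0.770. On plain shares of counts, S3 salt library 1 was still the lowest of its group for every member but LEA3-1. S13 salt library 1 was still the lowest except for Em and for LEA3-2, at 0.0499% for LEA3-2 against 0.0448% in library 2. S3 salt library 3 had a factor close to that of S3 salt library 1. It held 6037 CPM of LEA group 1 against 2498 in library 1, but for LEA3-1 17991 against 17962. The part of these differences in makeup in the results was not tested.

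Whether the lines responded differently was tested directly, as the difference of the 2 salt responses. No gene in the whole table passed this test (0% of 28189 by edgeR quasi-likelihood, with 2435 at an unadjusted p under 0.05), so 0 of the 5 LEA genes did. By limma-voom the count over all genes was 0 too, and by DESeq2 it was 142. A response called in S13 and not in S3 is therefore not shown to differ between the lines by the edgeR test.

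LEA3-2 came closest. Its response was larger in S13 by 1.90 ± 0.47 on the log2 scale (SE), with a 95% interval from 0.86 to 2.95 and an unadjusted p of 0.00207 in the edgeR model (Benjamini-Hochberg adjusted p = 0.473). DESeq2 gave 1.90 with an adjusted p of 0.0356, the one alternative that called it. Over the 18 alternatives run for this contrast the value stayed between 1.65 and 2.19, with adjusted p from 0.0356 to 1. For Em the difference was 1.88 ± 0.83 (SE; edgeR, 95% interval 0.05 to 3.71, Benjamini-Hochberg adjusted p = 0.561), which fell to 0.89 without S13 salt library 3, the library with the high Em value.

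For LEA group 1 and LEA group 3 the differences of the responses were 0.97 ± 0.66 and 0.59 ± 0.49 (SE), with 95% intervals from -0.50 to 2.43 and from -0.50 to 1.68. The response of LEA3-1 was close to equal in the 2 lines, with a difference of 0.04 ± 0.50 (SE) whose 95% interval from -1.07 to 1.15 still allows a 2.21-fold larger response in S13 or one 0.476 times as large.

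**Figure D3:**
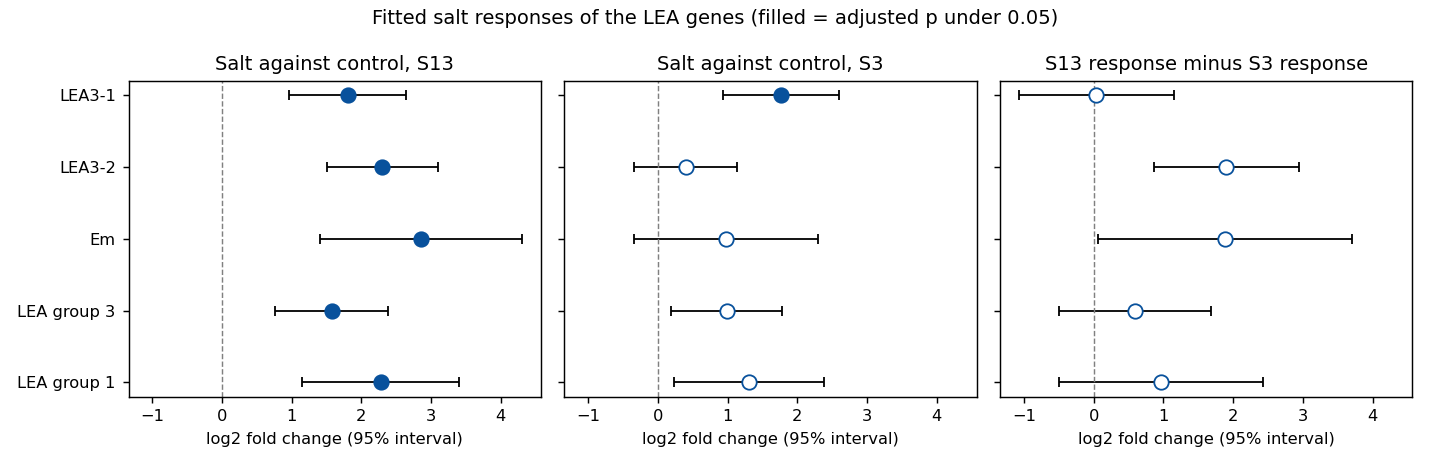
Fitted log2 fold changes with 95% intervals for the salt response in S13, the salt response in S3 and the difference of the responses, with filled points where the adjusted p was under 0.05. All 5 points are filled in S13, only that of LEA3-1 in S3, and none for the difference, where the intervals of LEA3-2 and Em lie above 0.

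Comparing the lines without salt, 0 of the 5 LEA genes passed the edgeR quasi-likelihood test, in which 1.42% of all genes were called. At an unadjusted p under 0.05 in this test there was 1 of the 5, LEA3-2, beside 8.75% of all genes. It was at 120 and 148 CPM in S13 controls and at 252 and 348 in S3 controls, so the ranges did not overlap. Its log2 fold change of S13 against S3 was -1.16 ± 0.37 (SE; edgeR quasi-likelihood, Benjamini-Hochberg adjusted p = 0.250). By DESeq2 and limma-voom the count of members was 0 as well. Em also stood lower in both S13 controls than in both S3 controls, with -0.86 ± 0.64 (SE). The share of all genes whose libraries stood apart between the lines, in controls or under salt, was not counted. Such gaps are therefore description only. For LEA group 1, LEA group 3 and LEA3-1 the control ranges of the lines overlapped, with log2 fold changes of -0.56, -0.14 and 0.05.

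Under salt the fitted levels of all 5 stood higher in S13 than in S3, and 0 passed the edgeR quasi-likelihood test, in which 3.57% of all genes were called. DESeq2 and limma-voom called 0 as well. In the edgeR test 15.7% of all genes had an unadjusted p under 0.05, and 1 of the 5 did. This was again LEA3-2, whose S13 libraries at 542 to 830.1 CPM lay just above the S3 libraries at 287 to 539, a log2 fold change of 0.74 ± 0.30 (SE; edgeR quasi-likelihood, Benjamini-Hochberg adjusted p = 0.249). The values were 1.02 ± 0.52 for Em, 0.45 ± 0.31 for LEA group 3, 0.41 ± 0.42 for LEA group 1 and 0.08 ± 0.32 for LEA3-1 (SE). That of LEA3-1 was -0.07 without S13 salt library 2, and that of Em was 0.03 without S13 salt library 3.

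For LEA3-2, Em, LEA group 3 and LEA group 1 the order of the means from high to low was S13 salt, S3 salt, S3 control and S13 control. In LEA3-2 the neighbours in this order overlapped for S3 salt and S3 control, but not for the other steps. Em overlapped between the salt groups alone, LEA group 3 overlapped between the lines under each condition, and LEA group 1 overlapped at every step. For LEA3-1 the mean under salt was 19901 ± 4832 CPM in S13 and 18767 ± 1369 in S3 (SD, n = 3), and without salt 5695 ± 295 and 5515 ± 1161 (SD, n = 2). As in LEA group 3, the lines overlapped under each condition, and the salt libraries did not overlap the controls. No difference between the lines passed for any of the genes, in controls or under salt, so these orders describe the means only. For LEA3-1 and LEA group 3 the log2 differences of the controls, 0.05 and -0.14, also changed sign when a library was left out.

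The ratio of a member to LEA3-1 within a library does not depend on how libraries are scaled. This ratio was chosen after the values were seen and is given as a description. Per kilobase of exon LEA3-2 was at 2.19% and 2.50% of LEA3-1 in S13 controls and at 3.70%, 2.55% and 3.93% under salt. In S3 it was at 5.36% and 5.48% in controls and at 1.59%, 2.64% and 2.01% under salt. The ratio was thus higher in each S13 salt library than in the S13 controls, by little in the second, and lower in each S3 salt library than in the S3 controls.

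For Em the ratio was 6.30% and 6.74% in S13 controls and 11.5%, 4.25% and 25.6% under salt, so that the groups overlapped. In S3 it was 18.1% and 7.89% in controls and 5.59%, 7.80% and 7.70% under salt. LEA group 3 was at 36.3% ± 4.76 (SD, n = 2) of LEA3-1 in S13 controls and 31.1% ± 2.60 (SD, n = 3) under salt, and at 42.9% ± 16.2 (SD, n = 2) and 23.8% ± 5.91 (SD, n = 3) in S3. LEA group 1 was at 43.1% ± 16.9 (SD, n = 2) and 59.3% ± 7.63 (SD, n = 3) in S13, and at 63.5% ± 11.7 (SD, n = 2) and 46.9% ± 19.1 (SD, n = 3) in S3. In S3 all 4 mean ratios were lower under salt, and in S13 that of LEA group 3 alone was. All of them are divided by LEA3-1, so they are not separate observations. Control and salt libraries overlapped for LEA group 1 in both lines and for LEA group 3 in S13. They did not overlap in S3 for LEA group 3 or, by little, for Em.

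**Figure D4:**
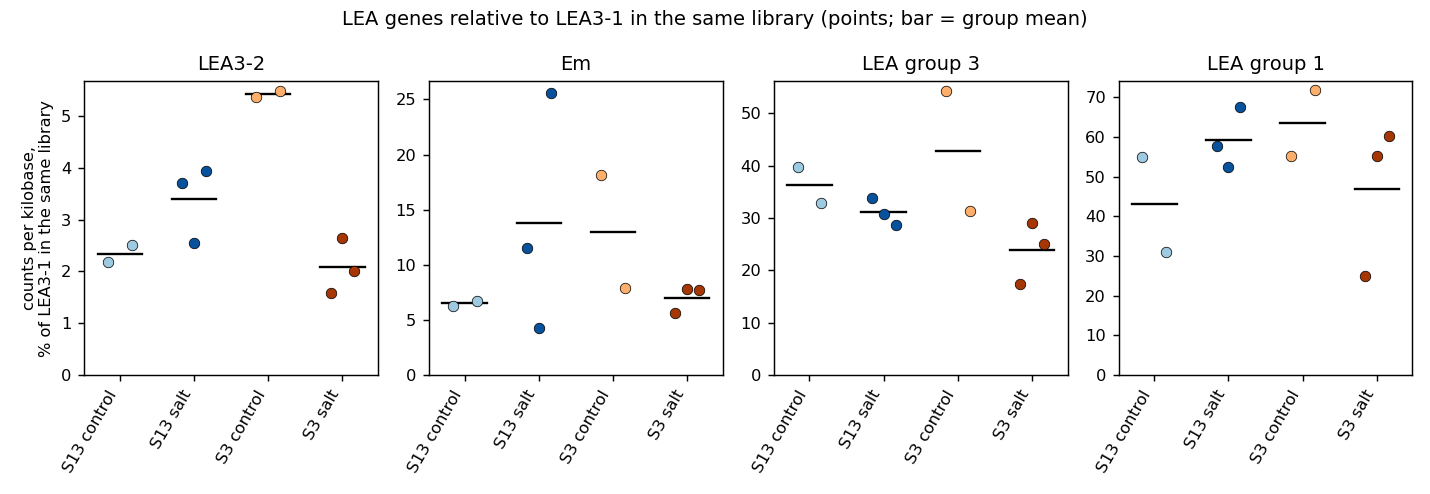
Counts per kilobase of each other LEA gene as a percentage of LEA3-1 in the same library, with a point per library and a bar at the group mean. For LEA3-2 the S3 controls stand at 5.36% and 5.48% and all S3 salt libraries below 3%. Its S13 salt libraries lie above the S13 controls, salt library 2 only just, at 2.55% against 2.50% in control library 2.

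The 4 members other than LEA3-1 had a summed share of 0.449% ± 0.0696 (SD, n = 2) without salt and of 1.09% ± 0.188 (SD, n = 3) with it in S13. In S3 this share was 0.613% ± 0.0143 (SD, n = 2) and 0.797% ± 0.241 (SD, n = 3), where the first salt library, at 0.520%, lay below both controls.

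The members differed in how far their profiles over the 10 libraries ran together. As a measure, the root mean square difference of log2(CPM + 1) was taken after each gene was centred on its own mean. LEA3-1 and LEA group 3 were the closest pair at 0.40, and LEA3-1 and Em were the farthest apart at 0.75. The 4 pairs with Em were at 0.575 or above. From its lowest to its highest library Em ranged 15.5-fold, LEA group 1 7.74-fold, LEA3-2 6.89-fold, LEA3-1 5.13-fold and LEA group 3 3.81-fold. The highest library was an S13 salt library for each member. The model's estimate of variation between libraries of a group was 44.6% for Em, 35.7% for LEA group 1 and 25.5% to 28.1% for the others, against 37.3% over all genes. Counting error was small beside this, at 1.59% for the lowest count of any member, 3941.

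Among 15687 other genes with a mean of at least 5 CPM, the profiles most like the mean profile of the 5 LEA genes were those of Os04g0518100 and Os12g0268000. They were picked for the smallest root mean square differences from it over the 10 libraries, 0.18 and 0.21. The median of all these genes was 0.91. The members themselves ran from 0.29 for LEA3-2, with 42 other genes closer to the mean profile, to 0.49 for Em, with 1022 closer. The likeness was thus not particular to the 2 genes. The files do not pair the identifiers Os04g0518100 and Os12g0268000 with names. Os04g0518100 (chromosome 4, 25906878 to 25910059) had log2 fold changes under salt of 1.87 in S13 and 1.06 in S3, and Os12g0268000 (chromosome 12, 9579773 to 9581772) had 2.08 and 1.21. The exons of the latter overlap those of another gene, so its counts are less certain.

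The nearest tested genes beside the members were read off the same fit. Of these 10 genes, 1 on each side of each member at 465 to 32729 bp, 3 were called higher and 0 lower in S13. There 12.8% of all genes were called higher and 27.1% in either direction. In S3, 3 were higher and 2 lower, against 14.4% called higher and 32.8% in either direction. With 10 genes, these counts do not show whether the change extended to the neighbourhood. The 3 higher genes were the same in both lines and lay beside LEA3-1, LEA3-2 and LEA group 3. The one beside LEA group 3, at 465 bp, had log2 fold changes of 2.53 in S13 and 2.88 in S3, larger than those of LEA group 3 itself. Both genes beside Em were called lower in S3, with -1.39 and -1.15, and were not called in S13, with -0.20 and -0.55.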

How the data were processed

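Total RNA of rice roots was sequenced in 10 libraries. The authors deposited a file of raw read counts per gene and library, per the file headers, with exon coordinates and lengths for 38978 genes. The submitters' processing notes list FastQC, Trimmomatic, HISAT2, featureCounts and DESeq2 with build IRGSP-1.0. Versions, roles and the strand setting are not stated there. Columns of other samples numbered 0.

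The members and lists were chosen with earlier results of these data known. One edgeR model (edgeR 4.0.16, R 4.3.3) of 4 group means without a block was fitted to the counts of all genes that passed filterByExpr, with TMM factors and the quasi-likelihood test. A gene was called where its p, adjusted over all tested genes by Benjamini-Hochberg, was under 0.05. Standard errors were taken as the log2 fold change divided by the root of the F statistic. The fit was also run on simulated counts with the same spread for all genes and no shift in library makeup, unlike these data. There it missed more of the smaller than of the larger changes put in, which the run required in order to go on. A gene that was not called may still have changed. Alternatives used DESeq2 1.42.0, limma-voom (limma 3.58.1), other scalings and filters, a replicate block, only the groups being compared, 1 gene kept of each overlapping set, and each library left out.

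A chi-square per degree of freedom of 36.9 to 224 between libraries of a group gave no reason to treat any as a repeat. RefSeq's gene table (ASM3414082v1) lists LEA3-1 and Em on chromosome 5 and LEA3-2 on chromosome 3, as here, but pairs 0 of the 5 identifiers with an entry. A planned list of further LEA and dehydrin genes, 5 identifiers among it, could not be used, because no table describes its identifiers. All members and the 2 genes most like their mean profile were named by rule.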

Additional observations from a re-analysis of the deposited data

How the results depend on the processing

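Of the 5 LEA genes, the number called in S13 under salt was 5, and stayed at 4 or 5 except when a control library was left out: over the fits without a single library it ran from 1 to 5. In S3 the main number was 1. It was 2 with DESeq2 size factors in edgeR, 2 with limma-voom, 3 with DESeq2, and 0 to 3 without a single library. For the difference of the responses it was 0, and 1 with DESeq2. Between the lines no alternative called any of the 5. The log2 fold change of LEA3-2 in S3 was -0.33 with library totals, which moved the median of all genes to -0.77. Relative to that median it was 0.44, against 0.46 with TMM factors.

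LEA3-1 changed sign where its value was near 0. For the difference of the responses it was -0.018 with library totals, -0.0020 with limma-voom, -0.0042 with the replicate block, and -0.20 to 0.24 without a single library. Between the lines it ran from -0.15 to 0.28 in controls and from -0.075 to 0.24 under salt without a single library, and LEA group 3 in controls from -0.31 to 0.052. The cause of these changes was not tested, beyond the smaller number of libraries in the last kind of fit.

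Replicate numbers were not shown to pair the libraries: same-numbered S13 and S3 salt libraries had correlations of deviations of -0.049, 0.266 and 0.0192, and the control numbers ran against the salt numbers in both lines (-0.145 to -0.0389). With the replicate block 5 members were called in S13 and 1 in S3, as without it.

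Over all genes, the counts moved by more than 1.5 times from 7627 in S13 to 1503 or 2467 without a control library. In S3 they moved from 9237 to 3224 or 5277 without a control and 5965 without salt library 2. Between the lines they ran from 230 to 846 around 401 in controls and from 530 to 1978 around 1005 under salt. The tests of unequal responses gave 0 to 142. The members' shares of their summed level per length cannot depend on how a library is scaled, so TMM-scaled counts could not test them. The 2 most similar genes were the same under both other settings tried. With 2 controls a line, the standard errors of the differences of responses were 0.47 to 0.83 log2 units, which limits what these data can separate.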
